A study of Mus musculus with 30 samples.

Results

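Genes of antigen presentation by MHC class II were followed by RNA sequencing in the mouse dendritic cell line DC3.2. The set holds 7 genes of the 31427 gene symbols in the deposited expression table and was chosen by name: Ciita, H2-Aa, H2-Ab1, H2-Eb1, Cd74, H2-DMa and H2-DMb1. All 7 passed the filter on low values. There are 30 libraries, and the question of the study is which transcripts differ between lines that lack the interferon regulatory factors IRF1, IRF2 or both, with and without interferon. A first set of 24 libraries has 2 replicates in each of 12 groups. Its genotypes are WT (nosg in the titles), IRF1KO (IRF1sg), IRF2KO (IRF2sg) and DKO, in which both factors were targeted. Cells of each genotype were kept for 2 h in media alone, in IFNα at 5000 U/mL or in IFNγ at 2 ng/mL. Titles of this set begin with DC32R, where the cell line label is DC3.2 for all 30 libraries, and what the R stands for is not stated. A second set of 6 single libraries, called the single libraries below, holds WT and Irf2KO cells, written IRF2KO here, at 0 h, after 2 h of IFNα and after 2 h of LPS, the lipopolysaccharide of bacterial outer membranes. The dose of LPS is not given in the sources used here, nor is whether each line is 1 clone. The 2 libraries of a group are not said to come from separate cultures, so a p-value sets a difference against the spread between libraries, which may be technical.

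MHC class II molecules display peptides from endosomes to CD4 T cells, and dendritic cells are among the few cell types that make them without stimulation. An alpha and a beta chain pair in the endoplasmic reticulum with the invariant chain, encoded by Cd74, which blocks the peptide groove and sorts the complex to endosomes. There proteases trim the invariant chain and H2-DM exchanges its last fragment for peptide. Transcription of all these genes is switched on together by CIITA, a coactivator that binds no DNA itself and is recruited by the factors RFX, CREB and NF-Y bound to the X1, X2 and Y boxes upstream of each gene. The Ciita gene has several promoters, of which one is used in dendritic cells and another answers to IFNγ, with IRF1 among the factors that act on it. The values here are per gene, so the promoters of Ciita were not separated.

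The boxes can be read in the 150 bases upstream of the RefSeq start sites of a chain gene from each class II isotype, on chromosome 17 of GRCm38.p6. They are shown because they are the stretch on which the CIITA complex acts, and they are written 5′ to 3′ on the gene's own strand. Capitals mark the Y box core GATTGG or its complement CCAATC, the end of the X1 box AACTGATG and the X2 palindrome TGACGTCA.
H2-Aa, chr17:34287824-34287973, minus strand: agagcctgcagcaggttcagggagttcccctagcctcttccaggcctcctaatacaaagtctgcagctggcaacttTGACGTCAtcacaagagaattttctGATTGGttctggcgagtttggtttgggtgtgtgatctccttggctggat
H2-Eb1, chr17:34305717-34305866, plus strand: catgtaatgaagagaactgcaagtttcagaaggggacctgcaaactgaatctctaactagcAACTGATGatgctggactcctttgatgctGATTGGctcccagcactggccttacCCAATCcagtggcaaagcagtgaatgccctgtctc

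The X1 box end began at −89 from the start of H2-Eb1 and at −92 from that of H2-DMb1, and the Y box core followed at −60 and −62. GENCODE M21 lets H2-DMb1 begin further upstream, at 34153072 against 34153191 in RefSeq, so its window is not printed. In H2-Aa the X2 palindrome began at −74 and the Y box core at −49. H2-Eb1 held a second Y box core at −35, on the other strand. Of 32851 RefSeq promoters of 250 bases before and 50 bases after a start, searched on both strands, 16.1% held GATTGG, 0.776% held AACTGATG and 1.79% held TGACGTCA. RefSeq promoter entries matched 4 of the 7 genes. No entry matched Ciita or H2-Ab1, and Cd74 was not looked up. H2-DMa, the last of the 4, has 2 listed starts, with none of the 3 motifs at the first and a Y box core at −199 from the second. The IRF element GAAANNGAA, present in 8.56% of all promoters, was not found in the entries of these 4 genes. These are matches of letters in a fixed window and not measurements of binding. On GRCm38, GENCODE M21 places Ciita on chromosome 16 from 10480059 to 10528418, and H2-DMa, H2-DMb1, H2-Ab1, H2-Aa and H2-Eb1 on chromosome 17 from 34119541 to 34316674.

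All values are TPM, a measure that scales reads by transcript length and by library. Sequencing depth is unknown, since TPM keeps no totals. A replicated library held 10911 to 11101 genes at 1 TPM or more, and a single one 9971 to 10186. The targeted genes did not fall to 0: Irf2 was between 17.4 and 28.5 TPM in the 6 IRF2KO libraries and between 23.4 and 42.1 TPM in the 6 WT libraries (mean difference over treatments −0.43 ± 0.08 SE on the log2 scale, adjusted p = 0.0039 by limma). Irf1 mRNA was higher in IRF1KO than in WT by 0.54 ± 0.10 (adjusted p = 0.021), a call lost with the compared groups alone and without any 1 of 6 libraries (0.47 to 0.60 over the 12 left out). An edit can remove a protein without lowering its mRNA, so these levels do not check the lines. Of 11 dendritic cell markers 7 reached 1 TPM in a replicated library, while Flt3 was at 0 throughout and Clec9a, Xcr1 and Ccr7 stayed below 1 TPM. All 8 macrophage and monocyte markers reached 1 TPM. None of the 7 B cell markers (sum of at most 0.33 TPM), 5 T cell markers or 4 fibroblast markers did.

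Ciita rose within 2 h of interferon, and more with IFNγ than with IFNα. In WT cells it was at 12.7 and 7.56 TPM in media, 19.7 and 24.04 TPM with IFNα, and 47.6 and 50.1 TPM with IFNγ. The 3 WT treatments did not overlap. In IRF1KO cells Ciita was at 12.6 and 7.45 TPM in media, 17.16 and 18.01 TPM with IFNα, and 36.0 and 33.6 TPM with IFNγ. In IRF2KO cells the values were 8.19 and 7.98, then 21.9 and 19.6, then 32.7 and 29.3 TPM in the same order. In DKO cells they were 10.6 and 9.74, then 13 and 17.69, then 21.6 and 36.5 TPM. In every genotype both IFNα libraries and both IFNγ libraries stood above both media libraries, and in every genotype the IFNγ libraries stood above the IFNα libraries. Of all 11842 genes 1.93% separated this way from media with IFNα, 2.30% from media with IFNγ and 1.28% with IFNγ above IFNα, and Ciita was the 1 member of 7 in each case. In bulk RNA a change in the number of cells that express a gene and a change in RNA per cell cannot be told apart.

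**Figure D1:**
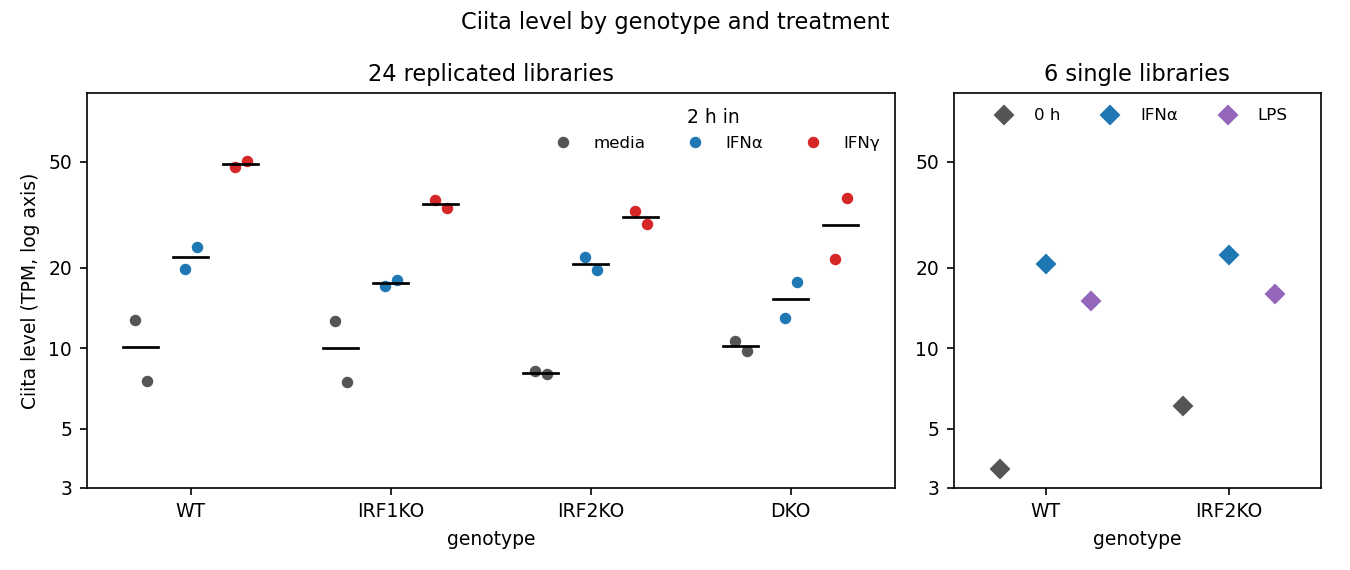
Ciita level in TPM on a log axis for each library, with genotype along the horizontal axis and treatment by colour. Left, the 24 replicated libraries with the mean of each group of 2 as a line, where both WT IFNγ libraries (47.6 and 50.1 TPM) lie above all 6 mutant IFNγ libraries (21.6 to 36.5 TPM). Right, the 6 single libraries, with 1 point per condition and no error.

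Averaged over the 4 genotypes, IFNγ raised Ciita by 1.78 ± 0.13 (SE) on the scale of log2(TPM + 1), a scale that understates the change of low genes (limma, n = 2 libraries per group, adjusted p = 7.2e-08). It was the 1 gene of the 7 that was called, in a comparison in which 4.01% of all 11842 genes tested were called. IFNα raised it by 0.91 ± 0.13 (adjusted p = 0.00021), again as 1 of 7 against 2.49% of all genes. Ciita was higher with IFNγ than with IFNα by 0.87 ± 0.13 (adjusted p = 0.0004), as 1 of 7 against 3.04% of all genes. These 3 calls held in each of the alternative settings tried and without any 1 library.

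Within single genotypes the IFNγ response of Ciita was 2.2 ± 0.25 in WT (adjusted p = 6.3e-05), 1.74 ± 0.25 in IRF1KO (0.0011), 1.81 ± 0.25 in IRF2KO (0.00059) and 1.38 ± 0.25 in DKO (0.012), all by limma. It was the 1 member of 7 called in each, where 1.26%, 1.16%, 1.13% and 0.777% of all genes were called. The call in DKO was lost without DKO IFNγ replicate 2 (1.02, adjusted p = 0.12), DKO media replicate 1 (1.44, 0.086) or DKO media replicate 2 (1.32, 0.14). A limma fit of the compared groups alone kept the values and ended the calls in WT, IRF1KO and DKO (adjusted p = 0.13, 0.29 and 0.57).

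The IFNα response of Ciita passed the test in IRF2KO alone, at 1.26 ± 0.25 (limma, adjusted p = 0.013), as 1 of 7 members against 1.39% of all genes. That call was lost without any 1 of the 4 libraries (adjusted p between 0.063 and 0.19) and with the compared groups alone (0.090). WT had 1.07 ± 0.25 (adjusted p = 0.064), which became a call under TMM scaling (0.028) and without WT media replicate 1 (1.41, 0.023). IRF1KO had 0.79 ± 0.25 (adjusted p = 0.40) and DKO 0.53 ± 0.25 (adjusted p = 0.87). In these 3 genotypes limma called 0 of 7 members, with 1, 1 and 0 at an unadjusted p under 0.05, where 1.04%, 0.819% and 1.01% of all genes were called.

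Whether the responses of Ciita differ between genotypes was tested directly. The IFNγ response in DKO minus that in WT was −0.82 ± 0.36 (limma, interval −1.58 to −0.05, unadjusted p = 0.038, adjusted p = 1). For IRF1KO the difference was −0.46 ± 0.36 and for IRF2KO −0.39 ± 0.36 (adjusted p = 1 each). Leaving out 1 library took the DKO value from −1.18 (without DKO IFNγ replicate 2) to −0.45 (without DKO IFNγ replicate 1), the IRF1KO value from −0.81 to −0.12 (without IRF1KO media replicate 2 and 1) and the IRF2KO value from −0.73 to −0.05 (without WT media replicate 1 and 2). For IFNα the differences were −0.28 in IRF1KO, 0.19 in IRF2KO and −0.54 in DKO, each ± 0.36. None of the 7 members was called in any of these 6 contrasts, and Ciita in the DKO contrast for IFNγ was the 1 member at an unadjusted p under 0.05. The share of all genes called was 0.0844%, 0.0338% and 0.0929% for IFNγ and 0.0253%, 0.0676% and 0.0844% for IFNα in IRF1KO, IRF2KO and DKO.

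**Figure D2:**
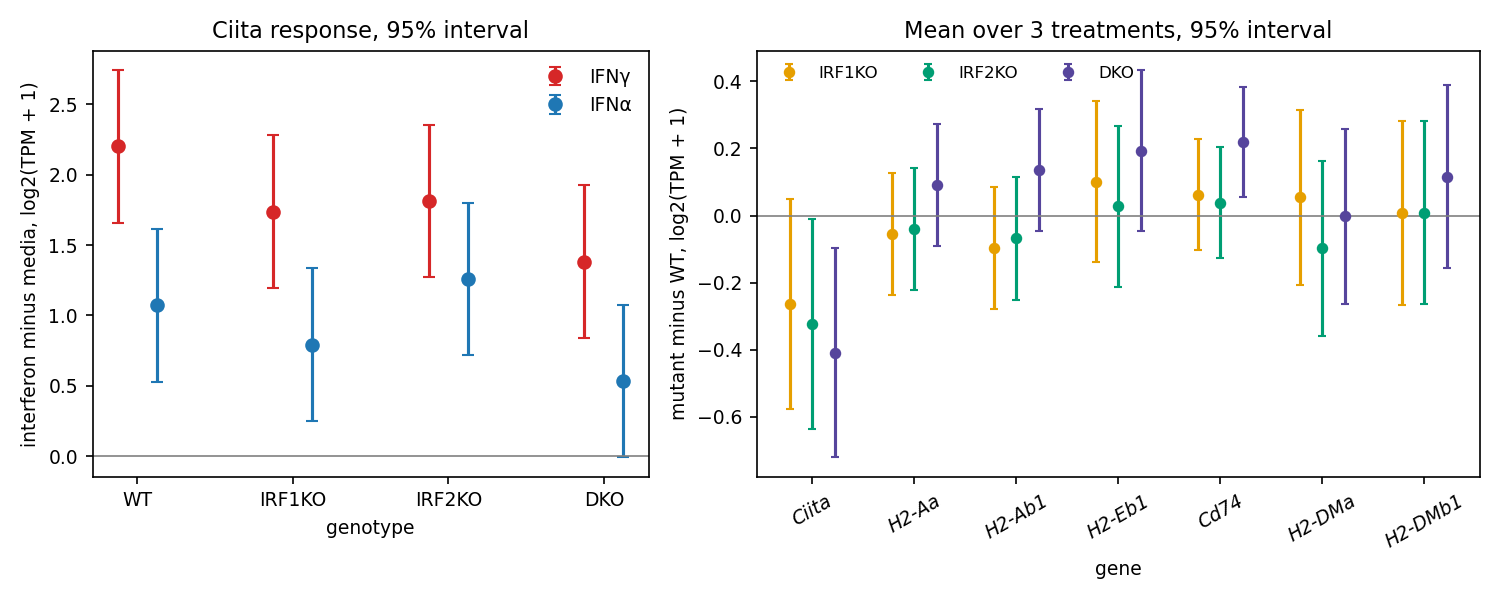
Left, Ciita response to each interferon by genotype, and right, mutant minus WT averaged over the 3 treatments for each gene, both as differences of log2(TPM + 1) with 95% intervals from limma. The Ciita responses run from 0.53 to 2.2, and on the right the Ciita values are below 0 in all 3 mutants while the largest value above 0 is 0.22, for Cd74 in DKO.

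The order of the 12 groups by mean Ciita level followed treatment before genotype. The 4 media groups came first, from 8.09 ± 0.15 TPM (SD, n = 2) in IRF2KO to 10.2 ± 0.63 TPM in DKO, and neighbours among them overlapped. The IFNα groups followed, from 15.3 ± 3.32 TPM in DKO to 21.9 ± 3.05 TPM in WT. DKO and IRF1KO overlapped here, as did IRF2KO and WT. The IFNγ groups rose from 29.1 ± 10.5 TPM in DKO through 31.0 ± 2.43 TPM in IRF2KO and 34.8 ± 1.72 TPM in IRF1KO to 48.9 ± 1.74 TPM in WT. DKO with IFNγ overlapped both IRF2KO and IRF1KO with IFNγ and also, at its lower library, both IRF2KO and WT with IFNα.

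The 6 genes that CIITA acts on did not pass the test in any interferon comparison. H2-Aa and H2-Ab1, the alpha and beta chains of the I-A molecule, were between 368 and 546 TPM and between 362 and 532 TPM over the 24 libraries, with medians of 435 and 427 TPM. H2-Eb1, the beta chain of I-E, was between 148 and 215 TPM (median 182). Cd74 was the most abundant, between 3623 and 5097 TPM (median 4195). H2-DMa and H2-DMb1, the chains of the peptide exchanger, were between 70.1 and 108 TPM (median 89.2) and between 136 and 203 TPM (median 169). The highest library was 1.41 to 1.55 times the lowest for these 6 genes, against 6.72 times for Ciita.

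**Figure D3:**
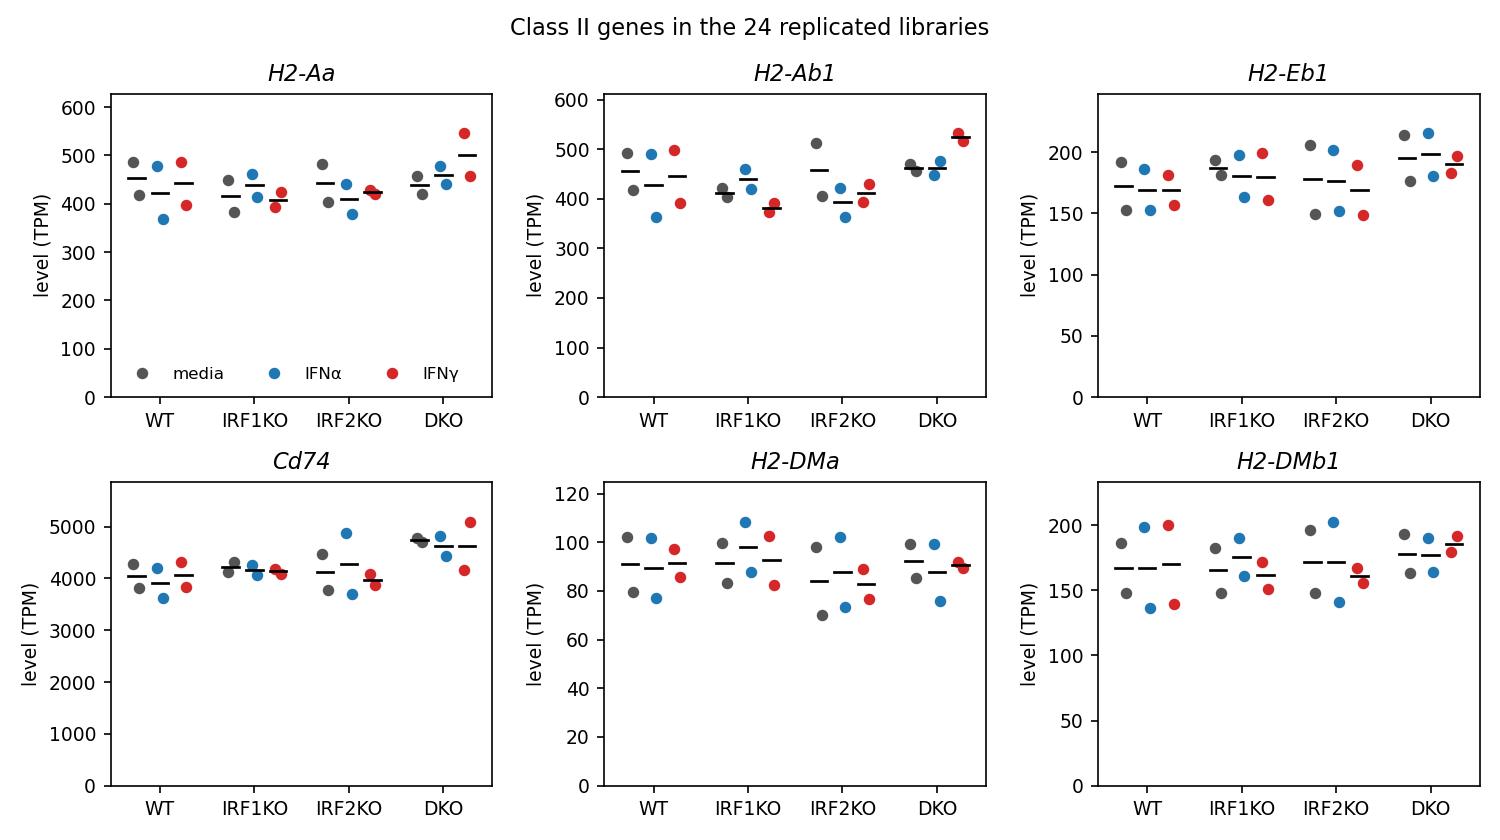
Level in TPM, on axes that start at 0, of the 6 class II genes other than Ciita in the 24 replicated libraries, by genotype with treatment as colour and the mean of each group of 2 as a line. Media, IFNα and IFNγ libraries overlap in nearly every genotype, and the 2 replicates of a group are often further apart than the groups.

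The 2 h response of these 6 genes to IFNγ, averaged over genotypes, lay between −0.05 for H2-Eb1 and 0.02 for H2-Aa on the log2 scale, and the 95% intervals ran from −0.25 to 0.23 at their widest. With IFNα it lay between −0.06 and 0.01, with intervals from −0.22 to 0.25. For Cd74 the IFNγ interval was −0.17 to 0.12 and for H2-Aa −0.14 to 0.18. Differences within those limits are not excluded, and the intervals are not limits of detection for the adjusted test. The median over all genes was −0.02 with IFNγ and −0.03 with IFNα, and over the 6 genes it was −0.02 and −0.02. Of 48 sets of 2 interferon libraries against 2 media libraries for these 6 genes, 46 overlapped and 2 did not, where 30.9% of such sets over all genes did not. Replicates of these 6 genes lay apart by replicate number, as given below, and the part of this in the overlap was not tested. The exceptions, named after their values were seen, were both H2-Ab1 with IFNγ, which was below media in IRF1KO (373 and 391 against 422 and 403 TPM) and above it in DKO (532 and 517 against 470 and 456 TPM). Neither passed the test.

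The replicate number moved with these 6 genes. Replicate 2 was below replicate 1 in 9 to 12 of the 12 groups for each of them, and replicate 2 minus replicate 1 averaged −0.10 for Cd74 to −0.30 for H2-DMa on the log2 scale. For Ciita it was below in 7 of 12. All libraries with the same replicate number carry the same date-like code in their titles, and what the code stands for is not stated.

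Mutant and WT cells were then compared within each treatment. limma called 0 of the 7 genes in IRF1KO, IRF2KO or DKO in media, where 0.00%, 0.836% and 0.760% of all genes were called and 0 of the 7 had an unadjusted p under 0.05. It called 0 of 7 with IFNα, where the shares were 0.177%, 0.971% and 1.05% and again 0 of the 7 had an unadjusted p under 0.05. It called 0 of 7 with IFNγ, where the shares were 0.236%, 0.802% and 1.31%, and where Ciita had an unadjusted p under 0.05 in IRF2KO and in DKO. Ciita under IFNγ was −0.48 ± 0.25 in IRF1KO (adjusted p = 1), −0.64 ± 0.25 in IRF2KO (0.47) and −0.77 ± 0.25 in DKO (0.26) against WT. Without DKO IFNγ replicate 1 the DKO value was −0.41 and without replicate 2 it was −1.14, and over the 4 libraries left out in turn the adjusted p ran from 0.073 to 0.75. Both WT libraries with IFNγ stood above all 6 mutant libraries with IFNγ, as they did for 2.87% of all genes. The comparisons share the WT libraries.

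Averaged over the 3 treatments, Ciita was −0.26 ± 0.15 in IRF1KO (adjusted p = 1.0), −0.32 ± 0.15 in IRF2KO (0.28) and −0.41 ± 0.15 in DKO (0.12) against WT, by limma. None of the 7 genes was called in these 3 comparisons, in which 0.355%, 4.37% and 5.83% of all genes were called, and 0, 1 and 2 of the 7 had an unadjusted p under 0.05. The DKO value of Ciita became a call without DKO IFNγ replicate 2 (−0.53, adjusted p = 0.046).

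Among the genotypes DKO had the highest median level of Cd74 and H2-Eb1, and also of H2-Aa, H2-Ab1 and H2-DMb1. Over the 6 libraries of a genotype, Cd74 had a lowest, median and highest level of 4163, 4744 and 5097 TPM in DKO and of 3623, 4016 and 4316 TPM in WT. For H2-Eb1 the same 3 values were 177, 190 and 215 TPM in DKO and 152, 169 and 192 TPM in WT. Its median in IRF1KO was 187 TPM, and DKO minus IRF1KO was 0.09 ± 0.11. The genotypes overlapped for Cd74 and for H2-Eb1. The mean difference between DKO and WT was 0.22 ± 0.08 for Cd74 (limma, adjusted p = 0.12) and 0.19 ± 0.11 for H2-Eb1 (0.36). In a fit that blocks on the replicate number the values were the same and both were called (adjusted p = 0.0488 each), as 2 of 7 genes against 12.6% of all genes. H2-Aa had 0.09 ± 0.09, H2-Ab1 0.14 ± 0.09, H2-DMb1 0.12 ± 0.13 and H2-DMa −0.00256 ± 0.12. The median over the 6 genes was 0.13 and over all genes 0.03.

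H2-Ab1 differed most between DKO and IRF1KO among the genotype means, without passing the test. Its lowest, median and highest level was 449, 473 and 532 TPM in DKO and 373, 411 and 461 TPM in IRF1KO, with an overlap. The mean difference over treatments was 0.23 ± 0.09 (limma, adjusted p = 0.16), which became a call with the replicate block (0.0484) and with the compared groups alone (0.039). That comparison called 0 of the 7 genes, with 1 at an unadjusted p under 0.05, against 4.56% of all genes, and with the block 1 of 7 against 10.8%. Between DKO and IRF2KO limma called 0 of the 7, with H2-Ab1 (0.20 ± 0.09) and Cd74 (0.18 ± 0.08) at an unadjusted p under 0.05, against 0.768% of all genes. Some markers of the cell type changed in DKO and IRF2KO cells too. In DKO against WT, where 5.83% of all genes were called, Itgax fell by 0.70 ± 0.07 and Cd24a by 1.18 ± 0.15. These were 2 of 7 tested markers with 0 higher, and the Cd24a call was absent after a filter on a mean of 5 TPM. Both fell against IRF1KO as well, and limma called 0 of the 7 between DKO and IRF2KO, with 4 at an unadjusted p under 0.05. Of the 8 macrophage and monocyte markers Lyz2 fell in DKO against WT, by 0.42 ± 0.06, and 0 rose. In IRF2KO against WT limma called Itgax (−0.53), Cd24a (−0.93), Irf4 (−0.51) and Lyz2 (−0.28) lower, where 4.37% of all genes were called. Leaving out 1 library kept the Irf4 call in 6 of 12 fits and the Lyz2 call in 7 of 12. With the compared groups alone the Irf4 and Lyz2 calls were lost. After the filter on a mean of 5 TPM the Cd24a and Irf4 calls were absent. The summed level of the dendritic cell markers was 737 to 1150 TPM in DKO and 635 to 1018 TPM in WT, and that of the macrophage markers 2622 to 3250 TPM and 2980 to 3596 TPM. A sum is carried by its most abundant genes, so it need not follow Itgax or Cd24a. The dendritic cell list also holds Irf8, which rose with IFNγ. The part of these markers in the class II values was not tested.

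Of 12 listed genes known to act on Ciita, all tested, 5 rose and 0 fell with IFNγ averaged over genotypes, by limma, where 4.01% of all genes were called. Irf1 rose by 4.32 ± 0.09, from 21.1 ± 1.99 TPM (SD, n = 2) in WT media to 470 ± 88.3 TPM with IFNγ. Irf8, a factor of dendritic cell development, rose by 2.45 ± 0.07, and Socs1, a feedback inhibitor of JAK kinases, by 2.18 ± 0.45. The other two were Irf4 (0.52 ± 0.11) and Prdm1 (0.90 ± 0.20), whose product represses Ciita in plasma cells. With IFNα, where 2.49% of all genes were called, 3 of 12 rose and 0 fell, namely Irf1 (3.04 ± 0.09), Irf2 (0.47 ± 0.07) and Irf8 (0.43 ± 0.07). Irf8 rose more with IFNγ than with IFNα, by 2.02 ± 0.07, as did Irf1, by 1.27 ± 0.09, and Irf4, by 0.51 ± 0.11, while Irf2 was lower with IFNγ than with IFNα (−0.33 ± 0.07). The last Irf2 call was lost with the compared groups alone, and the Irf4 and Prdm1 calls were absent after a filter on a mean of 5 TPM.

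Of the 7 genes of the promoter complex, Nfyb, a subunit of NF-Y, rose with IFNγ by 0.60 ± 0.10 (limma, adjusted p = 0.00076), and 0 fell. That comparison called 4.01% of all genes. Rfx5, which binds the X box, had 0.05 ± 0.10, and Rfxank, Rfxap, Nfya, Nfyc and Creb1 lay between −0.10 and 0.04. With IFNα, where 2.49% of all genes were called, limma called 0 of the 7, with 0 at an unadjusted p under 0.05. In IRF1KO, IRF2KO and DKO against WT, averaged over treatments, it called 0, with 0, 1 and 1 at an unadjusted p under 0.05. The shares of all genes called there were 0.355%, 4.37% and 5.83%. Of 5 other class II chain genes, 3 were tested, H2-DMb2, H2-Oa and H2-Ob, and limma called 0 with either interferon or in any mutant averaged over treatments, with 1 at an unadjusted p under 0.05, in IRF2KO. H2-Eb2 stayed below 1 TPM and H2-Ea did not match an entry. H2-DMb2 (2.68 to 11.7 TPM) is a close copy of H2-DMb1, so the split of reads between them is uncertain.

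Some genes that act on the class II proteins changed as well. Cd83, which opposes the ubiquitination of surface class II by MARCH1, rose with IFNγ by 1.96 ± 0.22 (limma, adjusted p = 2.6e-05), as 1 of 3 genes of surface turnover, with 0 lower. That comparison called 4.01% of all genes. March1 rose with IFNα by 0.60 ± 0.15 (adjusted p = 0.041) at levels near 1 TPM, a call lost with a pseudocount of 0.1, with no filter, with the compared groups alone and without any 1 of 10 libraries (0.50 to 0.70). March8 was higher in DKO than in WT by 0.52 ± 0.12 (adjusted p = 0.019), and this call was lost without any 1 of 5 libraries and with the compared groups alone. Of 9 endosomal processing genes limma called 0 with IFNγ and 0 with IFNα, with 1 and 0 at an unadjusted p under 0.05. The shares of all genes called there were 4.01% and 2.49%. Ctss, the protease that makes the last cut in the invariant chain in dendritic cells, fell in DKO against WT by 0.54 ± 0.06 (adjusted p = 1.8e-05), from 697 ± 7.88 to 514 ± 21.9 TPM in media. Ctsl, another cathepsin, fell by 0.43 ± 0.06 in DKO and by 0.40 ± 0.06 in IRF2KO. In IRF2KO Ctsb (0.23 ± 0.05) and Ctsz (0.21 ± 0.05) were higher, the Ctsz call being lost without any 1 of 7 libraries and both with the compared groups alone. In DKO 2 of 9 thus fell and 0 rose, where 5.83% of all genes were called. In IRF2KO 2 rose and 1 fell, where 4.37% of all genes were called.

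The genes whose level over the 12 group means was most like that of Ciita, by Pearson correlation of log2(TPM + 1) among 8825 genes with a mean of at least 5 TPM, were Nod1 (0.988), Fam26f (0.972), Serpina3f (0.967), Tgtp1 (0.963) and Stat3 (0.962). Nod1, a sensor of bacterial peptidoglycan, went from 1.85 TPM in WT media through 5.95 TPM with IFNα to 17.9 TPM with IFNγ. For H2-Ab1 they were its partner chain H2-Aa (0.958), Atg4b (0.873), Btbd19 (0.844), Tada3 (0.826) and H2-DMb1 (0.824). Ciita itself correlated with the 6 genes between −0.36 (H2-Eb1) and 0.08 (H2-DMa) over the same 12 means. H2-Eb1 and Cd74 correlated at 0.926. These are descriptions over groups that share libraries, treatments and replicate numbers, and H2-Ab1 varies so little that replicate differences enter them.

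In the single libraries Ciita was higher after 2 h of either stimulus than at 0 h. It was at 3.54 TPM in WT at 0 h, 20.6 TPM with IFNα and 15.03 TPM with LPS, and at 6.06, 22.4 and 15.9 TPM in IRF2KO in the same order. The differences were 2.25 with IFNα and 1.82 with LPS in WT, and 1.73 and 1.26 in IRF2KO, on the log2(TPM + 1) scale. With 1 library per condition there is no replicate check and no test. The baseline is 0 h and no single library was kept 2 h in media. An effect of 2 h in culture therefore cannot be told apart from that of a stimulus. Ciita was the 1 gene of the 7 that was at least 1.5-fold higher with IFNα in WT (3.65% of 10410 genes), with LPS in WT (4.68%), with IFNα in IRF2KO (3.47%) and with LPS in IRF2KO (4.62%). Irf1 was higher with both stimuli too. It was at 10.2 TPM at 0 h in WT, 164 TPM with IFNα and 40.8 TPM with LPS.

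The class II genes stood higher in IRF2KO than in WT in the single libraries, in all 3 conditions and for all 7 genes. H2-Aa was at 275, 277 and 293 TPM in WT at 0 h, with IFNα and with LPS, and at 467, 453 and 499 TPM in IRF2KO. H2-Ab1 was at 75.4, 87.6 and 106 TPM in WT and at 183, 168 and 183 TPM in IRF2KO. H2-Eb1 was at 101, 102 and 115 TPM in WT and at 171, 170 and 192 TPM in IRF2KO. For these 3 chain genes each IRF2KO library stood above all 3 WT libraries. Cd74 was at 4122, 4000 and 4609 TPM in WT and at 4890, 5067 and 5815 TPM in IRF2KO, likewise without overlap. H2-DMa was at 44.2, 51.8 and 43.8 TPM in WT and at 78.9, 76.5 and 67.6 TPM in IRF2KO. H2-DMb1 was at 91.1, 91.9 and 94.3 TPM in WT and at 128, 116 and 115 TPM in IRF2KO. Neither H2-DM gene overlapped between the genotypes. Of all 10410 genes 4.99% had each IRF2KO library above all 3 WT libraries, and so had these 6 of the 7, Ciita being the exception.

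On the log2 scale these differences were 0.71 to 0.77 for H2-Aa, 0.78 to 1.27 for H2-Ab1, 0.73 to 0.75 for H2-Eb1, 0.55 to 0.82 for H2-DMa, 0.28 to 0.49 for H2-DMb1 and 0.25 to 0.34 for Cd74. Ciita differed by 0.64 at 0 h, and by 0.11 with IFNα and 0.08 with LPS. All 7 genes were higher by any amount in all 3 conditions, as were 16.2% of all genes. H2-Aa, H2-Ab1 and H2-Eb1 were at least 1.5-fold higher in all 3, as were 0.596% of all genes. At 0 h 5 of the 7 passed that fold (3.13% of all genes), with IFNα 3 (2.61%) and with LPS 4 (1.83%). The median over the 7 genes was 0.75, 0.55 and 0.61, and over all genes 0.03, −0.00310 and −0.08. The 3 conditions are 1 library each of the same 2 lines, so they are not replicates of the genotype difference.

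In the replicated libraries limma called none of the 7 for this difference, as given above. There IRF2KO minus WT, averaged over media, IFNα and IFNγ, was −0.04 ± 0.09 for H2-Aa, with a 95% interval of −0.22 to 0.14, and −0.07 ± 0.09 for H2-Ab1, with an interval of −0.25 to 0.12. It was 0.03 ± 0.11 for H2-Eb1, 0.04 ± 0.08 for Cd74, −0.10 ± 0.12 for H2-DMa and 0.00789 ± 0.13 for H2-DMb1. For Ciita it was −0.32 ± 0.15, with an interval of −0.63 to −0.01, where the single values were above 0. These intervals are for means of 6 against 6 libraries, and a difference of 1 library against 1 spreads more widely, so the single values are given beside them and not judged by them. Both sets hold IFNα at 2 h and cells without a stimulus. The latter are at 0 h in the single libraries and after 2 h in media in the replicated ones, so they are not the same condition. LPS and IFNγ are each in 1 set. The titles also name the lines differently, Dc3.2 with Irf2KO in the single set and DC32R with IRF2sg in the replicated set. Whether these are the same lines is not stated. In the replicated libraries the 6 genes other than Ciita differed by −0.12 to 0.04 in media and by −0.11 to 0.12 with IFNα. Ciita differed by −0.26 in media and by −0.07 with IFNα there. The difference between the sets was not tested.

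**Figure D4:**
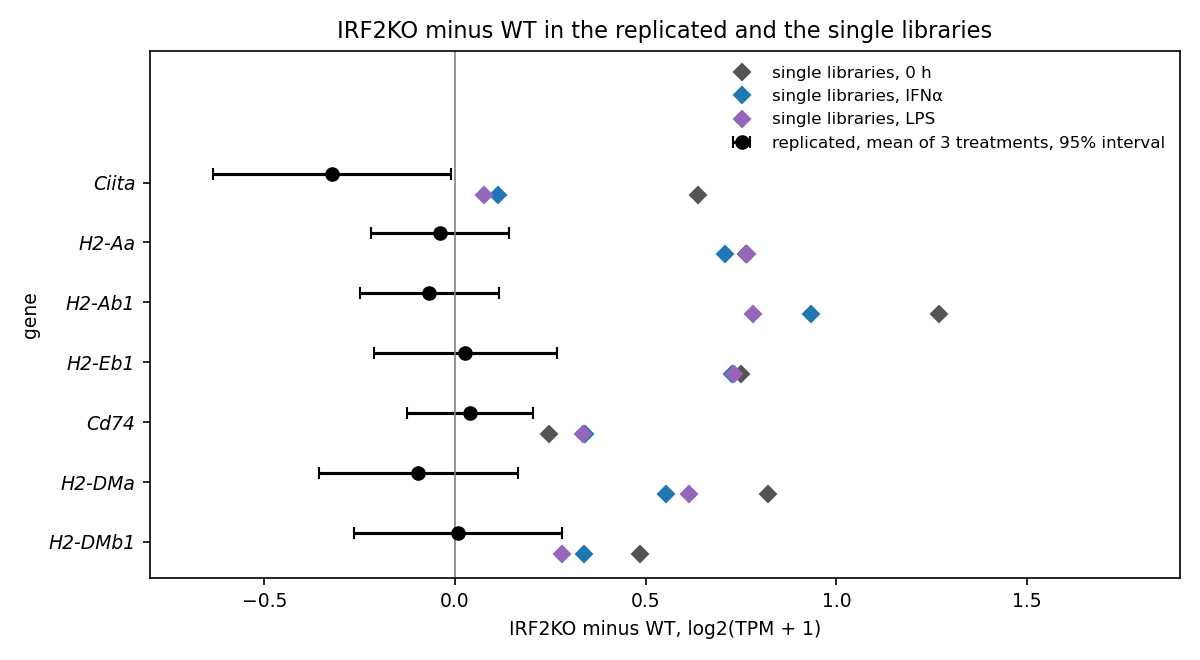
IRF2KO minus WT on the log2(TPM + 1) scale for each gene. Black points are the mean over 3 treatments in the replicated libraries with its 95% interval from limma, and coloured diamonds are the single libraries at 0 h, with IFNα and with LPS, without error. For H2-Aa the diamonds lie between 0.71 and 0.77 and the replicated interval ends at 0.14.

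The sets also differ in how they were quantified. Ciita, H2-Aa, H2-Ab1, H2-Eb1 and H2-DMb1 have 1 entry with values for the replicated libraries alone and another for the single ones, built from different numbers of transcripts (7 and 5 for Ciita, 2 and 1 for H2-Ab1). Cd74 and H2-DMa have 1 entry shared by both sets. Levels were therefore not compared between sets, and each difference was taken within a set. For the lists below, 16.2% of all genes in the single libraries were higher in IRF2KO in all 3 conditions, and 0.596% at least 1.5-fold higher. The share of all genes lower in all 3 was not taken. Of the 6 dendritic cell markers tested in the single libraries, Batf3, Id2 and Irf4 were higher in IRF2KO in all 3 conditions and 0 were at least 1.5-fold higher in all 3. In the replicated libraries limma called Irf4 lower in IRF2KO than in WT (−0.51), and Itgax (−0.53) and Cd24a (−0.93) as well. Of the 8 macrophage and monocyte markers 1 was higher and 3 were lower in all 3. The summed level of the dendritic cell markers was 391 to 1383 TPM in WT and 464 to 1538 TPM in IRF2KO. Most of that sum was Id2, at 1301 TPM in WT and 1420 TPM in IRF2KO at 0 h. With LPS Id2 was at 281 and 333 TPM, so the sum follows Id2 and treatment more than the other markers. The summed level of the macrophage markers was 2063 to 2417 TPM in WT and 1943 to 2343 TPM in IRF2KO, and that of the B cell markers was at most 0.34 TPM. The part of these markers in the class II difference was not tested. Of the 7 genes of the promoter complex 1, Rfxap, was higher in all 3 and 2 were lower, with 0 past 1.5-fold in all 3, and of the 12 inputs to Ciita 7 were higher and 1 lower in all 3, with Socs1 alone at least 1.5-fold higher in all 3. Of the 3 other class II chain genes tested, H2-Oa and H2-Ob were higher in all 3. H2-Ob lay near 1 TPM, at 0.77 TPM in WT and 1.61 TPM in IRF2KO at 0 h. H2-DMb2 was higher in IRF2KO at 0 h (0.65) and with IFNα (0.63) and lower with LPS (−0.44).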

How the data were processed

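Expression was taken from 1 deposited table that gives TPM for 30 libraries, as the authors made it. The submitters' processing notes name bcl2fastq 2.20, Bowtie 0.12.2, RSEM, mm10 and GRCm38, with no role or order. The table has 41346 entries for 31427 symbols, and 9919 symbols stand in 2 entries. Entries of a symbol were summed within the replicated and within the single libraries, and the sets were never pooled. The study's titles gave the groups.

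The 24 replicated libraries were modelled as log2(TPM + 1) with limma 3.58.1 under R 4.3.3. The model had 12 group means and 12 residual degrees of freedom, with the variance prior allowed to follow the mean level. A gene entered at 1 TPM or more in 2 or more libraries, which left 11842. Tests were two-sided, with Benjamini-Hochberg adjustment over all genes within each of 31 comparisons and a call at an adjusted p under 0.05. Errors after ± are SE unless SD is written, and intervals are 95% intervals. In the single libraries 10410 genes passed the same filter and were compared by differences of log2(TPM + 1), without a test. Python 3.11.15, numpy 2.4.6, pandas 2.3.3 and matplotlib 3.10.9 did the rest, and the limma fit was tested on simulated data.

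Each replicate number has a code of its own in the titles, which may pair the samples. The main fit leaves this pairing out, so differences between replicate numbers enter its errors, intervals and p-values. The replicate block, given as an alternative, takes the pairing in. Over genes, deviations from group means of same-numbered libraries correlated at a median of 0.233 (−0.16 to 0.481), and 56 of 66 group pairs were over 0.1. The members and gene lists were chosen with earlier results of these data known. Genes named besides the members are Irf1, Irf2, the called genes of a list, at most 4 by p, and the 5 genes most like Ciita and H2-Ab1. Other genes are named as examples of their list. Of the genes set out at the start, 1 is not reported here. Cd74 is described without sequence or position. The fit was repeated after leaving out each library, with the compared groups alone, with the replicate block, with TMM scaling, with 2 other pseudocounts (0.1 and 5) and with other filters (a mean level of 5 TPM, or none).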

Additional observations from a re-analysis of the deposited data

How the results depend on the processing

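Of 1519 values of the 7 genes under the alternatives, 1510 kept their side of the threshold, 4 lost a call, 5 gained one and 0 calls changed sign, while 424 values that were not called, left-out libraries included, took the other sign. A fit of the compared groups alone called 0 of the 7 genes for IFNγ against media in WT, IRF1KO and DKO and 0 for IFNα in IRF2KO, against 1 each, and 1 for DKO against IRF1KO averaged over treatments, against 0; fewer samples leave fewer degrees of freedom there. TMM scaling called 1 gene for IFNα in WT (Ciita, 1.12), against 0. With the replicate number as a block, 2 genes were called for DKO against WT averaged over treatments (Cd74 at 0.22 and H2-Eb1 at 0.19) and 1 for DKO against IRF1KO (H2-Ab1 at 0.23), against 0 each, and the block changed no other call of the 7 genes. Leaving out 1 library gave 0 to 1 called genes for IFNα in WT, IFNγ in DKO and DKO against WT averaged over treatments, and 0 in each case for IFNα in IRF2KO. The block moved the count of all called genes from 518 to 1141 for IRF2KO, from 690 to 1492 for DKO against WT, from 540 to 1276 for DKO against IRF1KO, from 475 to 849 for IFNγ and from 295 to 545 for IFNα, averaged over treatments or genotypes. At a pseudocount of 5 the single-library rises of Ciita were 1.58 and 1.23 in WT and 1.31 and 0.92 in IRF2KO, for IFNα and LPS. The cause of these shifts was not tested. Depth is unknown, so what it limits cannot be given.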

Other observations

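The proportion of the 2 I-A chains differed between the library sets. In the 24 replicated libraries the TPM of H2-Ab1 was 0.919 to 1.13 times that of H2-Aa. In the single libraries it was 0.274 to 0.362 times in WT and 0.367 to 0.392 times in IRF2KO. Both genes have separate entries for the sets, from 2 transcripts each in the replicated libraries and 1 each in the single ones. For H2-Eb1 over H2-Aa the ratio was 0.335 to 0.506 in the replicated libraries and 0.366 to 0.394 over all 6 single ones.

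Cd83 in the single libraries went from 4.82 TPM in WT at 0 h to 78.4 TPM with LPS, and from 5.66 to 110 TPM in IRF2KO, while with IFNα it was at 4.83 and 5.30 TPM. Each is 1 library, without a test and without a library kept 2 h in media.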
